A study of Mus musculus with 346 samples.

Results

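The 8 keratins described here are the basal keratins Krt5, Krt14, Krt15 and Krt17 and the luminal keratins Krt7, Krt8, Krt18 and Krt19, chosen by name as the markers of the lineages of the mouse mammary epithelium and found by their Entrez identifiers among the 27179 genes of the count tables. Cells were dissociated and sorted from mammary tissue of FVB/NJ mice and captured singly on a Fluidigm C1 instrument, each in its own chamber. The study viewed the captured cells by microscope, and the series holds 346 sequenced cells. The stages were pre-puberty (2 weeks, 144 cells), puberty (4.7 to 4.9 weeks, 136 cells) and adult (10 weeks, 66 cells), from untreated females of this strain. The series record gives 8 mice for each stage, whereas the study's text gives other numbers of mice per sort and more than a single experiment. The cells were labelled as total epithelium, a sort of basal and luminal cells lacking endothelial and blood cell surface markers, with no label naming a mouse, a sort or a capture plate. Each stage was therefore 1 sample without replicates, no test between stages was possible, and all intervals below are exact 95% intervals that cover counting error only.

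Keratins are the intermediate filament proteins of epithelial cells. A filament forms only from a type I keratin joined to a type II keratin, and a cell's set of keratins is a long-used sign of its epithelial type. In the mammary duct, the outer basal (myoepithelial) layer is marked by the type II keratin Krt5 with the type I keratin Krt14, and the inner luminal layer by the type II keratin Krt8 with the type I keratins Krt18 and Krt19.

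Cells entered the analysis with 100000 reads and 1500 genes or more, counted after mitochondrial, ribosomal and unannotated genes were removed. This left 116 pre-pubertal, 119 pubertal and 44 adult cells, with medians of 296636, 574422 and 334328 reads per cell over a range of 109394 to 1189257. The study reports more pubertal and adult cells than this after its own filter. The shares below therefore describe the cells of this series, not all cells of the study. Because deeper cells show more genes, each kept cell was thinned at random to 100000 reads before a keratin was counted as detected, and a level over a stage is given as CPM, the count per 1000000 counts, from all reads of its kept cells. The gene set used to check the label stood apart at pre-puberty: 111 of the 116 pre-pubertal cells had reads of 6 or more of 12 Schwann cell markers, such as Pmp22 and Mbp, against 2 of 119 pubertal and 0 of 44 adult cells. Of 10 luminal markers other than keratins, the median pre-pubertal cell had 0, against 7 at puberty and 4.5 in the adult. How far this difference in cell make-up entered the keratin values below was not tested.

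With 1 read in a thinned cell counted as detection, most pre-pubertal cells carried none of the 8 keratins. At this limit nearly all pubertal cells carried luminal keratins, and most adult cells carried keratins of both layers. At pre-puberty 68 of 116 cells (58.6%, 49.1 to 67.7) had none of the 8, 32 had only basal keratins, 4 only luminal keratins and 12 both. At puberty 59 of 119 cells had only luminal keratins, 55 had both, 4 had only basal keratins and 1 had none. In the adult 34 of 44 cells had both, 8 had only luminal keratins, 2 only basal keratins and 0 had none. The exact interval of this last share reached 8.04%, and the limit of 3 counts was 6.82%. With at least 10 reads as the limit of detection, 13 of 44 adult cells (29.5%) had both.

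**Figure D1:**
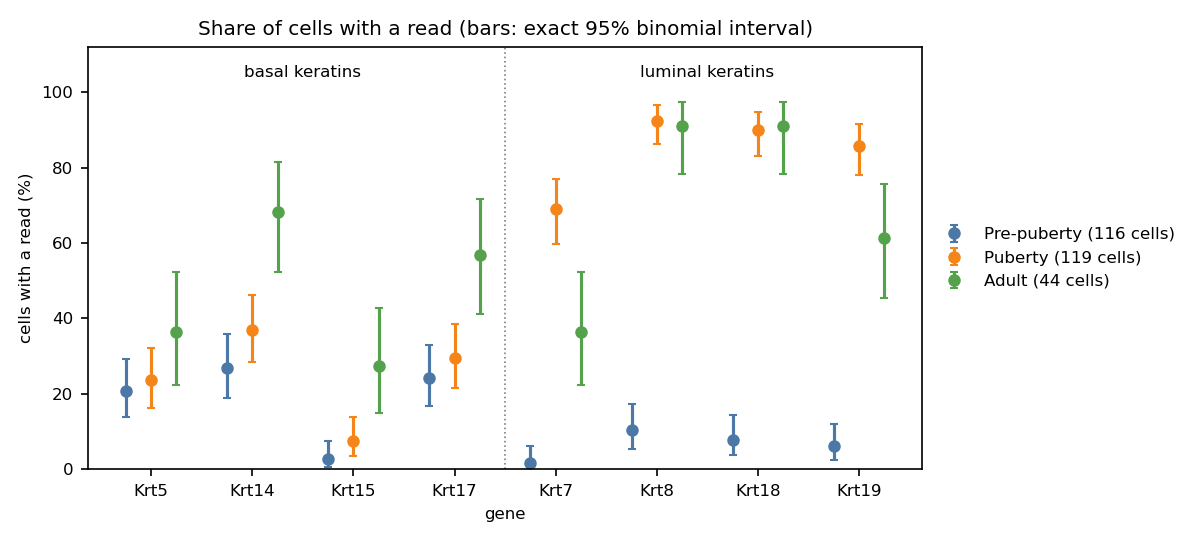
Share of thinned cells with at least 1 read of each keratin (y axis, percent) for the 8 genes (x axis), with points for the stages and bars for the exact 95% binomial interval. The luminal keratins Krt8 and Krt18 were found in 10.3% and 7.76% of pre-pubertal cells and in 89.9% to 92.4% of cells later, whereas the basal keratins had their highest shares in the adult.

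Among the basal keratins, Krt5 (Entrez 110308, type II, chromosome 15, 101707069 to 101712905 of mm10), the partner of Krt14 in basal cells, was found in 24 of 116 pre-pubertal, 28 of 119 pubertal and 16 of 44 adult cells, or 20.7%, 23.5% and 36.4%. Its reads per thinned cell ran from 0 through a median of 0 to 112 at pre-puberty, from 0 through 0 to 69 at puberty and from 0 through 0 to 174 in the adult. Most cells of every stage thus lacked it, and the stages overlapped over most of their range. Over all reads Krt5 stood at 65.7 CPM (63.3 to 68.3) at pre-puberty, 46.1 CPM (44.5 to 47.7) at puberty and 207.6 CPM (201.2 to 214.3) in the adult. Adult cell 24 held 36.45% of the adult reads, and the adult level was 137.8 CPM without it.

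Krt14 (Entrez 16664, type I, chromosome 11, 100203162 to 100207510), the main type I keratin of basal cells, was the most often found basal keratin at each stage. It had reads in 31 of 116, 44 of 119 and 30 of 44 thinned cells, or 26.7%, 37.0% and 68.2% from pre-puberty to adult. With all reads, however, Krt17 was found in more pre-pubertal cells (45 of 116) than Krt14 (40 of 116). Krt14 reads per thinned cell had a lowest value of 0, medians of 0, 0 and 6 and highest values of 494, 657 and 631 at pre-puberty, puberty and adult. The adult was the stage in which the median cell held Krt14, while the highest cells of the stages were of like size. Its level was 140.1 CPM, 224 CPM and 829 CPM in the same order.

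Krt17 (Entrez 16667, type I, chromosome 11, 100256215 to 100261029), a keratin of epithelial appendages that is also induced on wounding, was found in 24.1%, 29.4% and 56.8% of pre-pubertal, pubertal and adult cells. Its thinned reads had a lowest value of 0, medians of 0, 0 and 1 and highest values of 234, 484 and 711, and its level was 138 CPM, 170.2 CPM and 309.9 CPM. Cell 30 held 39.6% of the pre-pubertal reads, and the level of that stage was 86.0 CPM without it. Krt17 thus followed the order of Krt14 across the stages with a smaller spread between them.

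Krt15 (Entrez 16665, type I, chromosome 11, 100131759 to 100135949), a keratin of basal layers and of the hair follicle bulge, was the rarest basal keratin, with reads in 3 of 116, 9 of 119 and 12 of 44 cells (2.59%, 7.56% and 27.3%). The median cell had 0 reads at every stage and the highest cell had 197, 150 and 234. Its stage level rested on few cells: 95.1% of its pre-pubertal reads came from cell 27, and its level of 43.5 CPM at that stage became 2.16 CPM without that cell. At puberty the top cell held 46.3% of 20.1 CPM and in the adult 37.8% of 75.9 CPM.

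**Figure D2:**
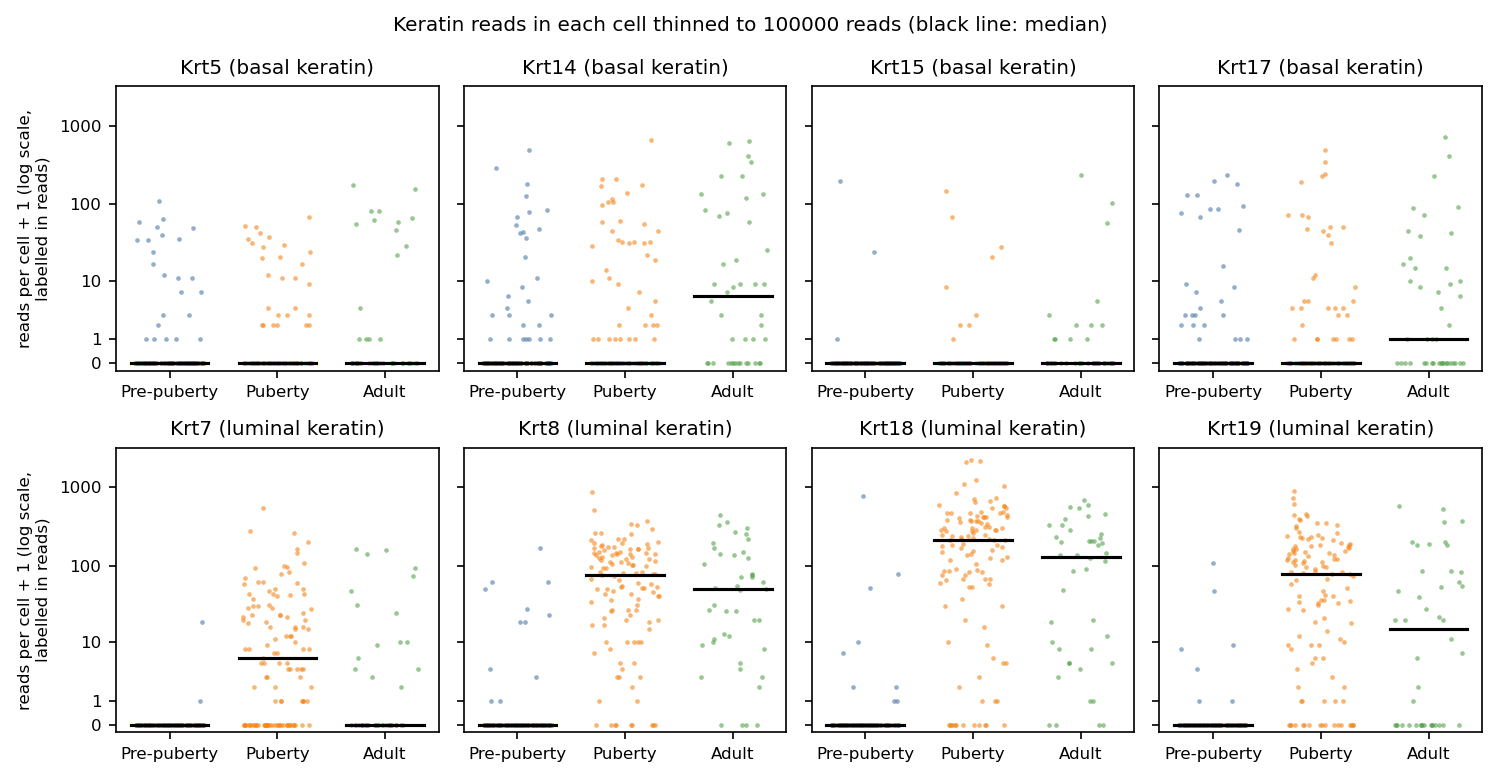
Reads of each keratin in every kept cell thinned to 100000 reads (y axis, log scale of reads + 1) by stage (x axis), 1 point per cell and a black line at the median. Medians of Krt18 were 0, 211 and 131 reads at pre-puberty, puberty and adult, whereas the medians of Krt5 and Krt15 were 0 at each stage.

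Among the luminal keratins, Krt18 (Entrez 16668, type I, chromosome 15, 102028216 to 102032026), the type I partner of Krt8 in simple epithelia, reached the highest level of the 8 at puberty. Reads per thinned cell ran from 0 through a median of 0 to 778 at pre-puberty, from 0 through 211 to 2225 at puberty and from 0 through 131 to 692 in the adult. Apart from cell 110, every pre-pubertal cell lay below the pubertal median, and the pubertal and adult ranges overlapped. Krt18 was found in 9 of 116 (7.76%), 107 of 119 (89.9%) and 40 of 44 (90.9%) cells, and its level was 72.5 CPM, 2487 CPM and 1713 CPM. Of the pre-pubertal reads, 89.8% came from cell 110, without which the level was 7.46 CPM.

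Krt8 (Entrez 16691, type II, chromosome 15, 101996711 to 102004342) had medians of 0, 76 and 50 reads per thinned cell, lowest values of 0 and highest values of 170, 878 and 437. It was found in 12 of 116 (10.3%), 110 of 119 (92.4%) and 40 of 44 (90.9%) cells, with levels of 33.8 CPM, 925 CPM and 869.5 CPM. For Krt8 and Krt18 the pubertal and adult ranges thus overlapped, with higher medians and highest cells at puberty, and the pre-pubertal cells were mostly at 0.

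Krt19 (Entrez 16669, type I, chromosome 11, 100140810 to 100145926), a luminal keratin that lacks the tail domain of the others, was found in 7 of 116 (6.03%), 102 of 119 (85.7%) and 27 of 44 (61.4%) cells. Medians were 0, 79 and 15.5 reads per thinned cell, with a lowest value of 0 and highest values of 110, 880 and 572. Its level was 16.9 CPM, 1073 CPM and 934.9 CPM. The binomial intervals of the adult and pubertal shares, for counting error only, were 45.5% to 75.6% and 78.1% to 91.5%. With at least 10 reads as the limit, these shares were 52.3% and 72.3%. The log2 ratio of the summed levels, adult over puberty, was -0.20. Among cells with 200000 to 600000 reads this ratio was -1.45, past the fold, and with equal weight for each cell it was -0.63. The most abundant adult cell held 21.1% of the reads of that stage.

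Krt7 (Entrez 110310, type II, chromosome 15, 101412403 to 101427806), a keratin of glandular and ductal epithelia, was found in 2 of 116 (1.72%), 82 of 119 (68.9%) and 16 of 44 (36.4%) cells. The pubertal and adult intervals, for counting error only, were 59.8% to 77.1% and 22.4% to 52.2%. With at least 10 reads as the limit, the pubertal and adult shares were 43.7% and 22.7%. Medians were 0, 6 and 0 reads per thinned cell, with a lowest value of 0 and highest values of 19, 539 and 162. Its level was 1.72 CPM, 270.6 CPM and 223 CPM, and 95.7% of the 70 pre-pubertal reads came from cell 110. Adult cell 41 held 36.8% of the adult reads, and the log2 ratio of the levels, adult over puberty, was -0.27. Pre-pubertal cell 110 also held the most reads of Krt8 (46.8%) and Krt19 (65.6%) at that stage, together with 5 of the 10 other luminal markers and 7 of the 12 Schwann markers.

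Between stages, the luminal keratins differed most between pre-puberty and the later stages, and the basal keratins between the adult and the earlier stages. The ratios below are log2 of stage CPM + 5 in each, and a gene was called when the log2 ratio was above 1 or below -1; with 1 sample per stage this is a rule of size, not a test. At puberty over pre-puberty all 4 luminal keratins were called higher, at 5.36 for Krt7, 4.58 for Krt8, 5.01 for Krt18 and 5.62 for Krt19, with a median of 5.18. Over the 9872 genes at 10 CPM or more in either of these stages, 24.0% were called higher and 21.4% lower, with a median of 0.13. None of the 4 basal keratins was called, with values of -0.47 for Krt5, 0.66 for Krt14, -0.95 for Krt15 and 0.29 for Krt17. The Krt15 value was set by cell 27: leaving out the cell with the most reads in each stage gave 1.15. The Krt5 value changed sign, to 0.25, when only pre-pubertal cells numbered 38 and up were used.

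In the adult over pre-puberty, the 4 luminal keratins were again called higher (median 4.79), and 3 of the 4 basal keratins as well, at 1.59 for Krt5, 2.52 for Krt14 and 1.14 for Krt17, with 0.74 for Krt15, against a background of 28.9% of 9758 genes called higher and 31.6% called lower. In the adult over puberty, Krt5 (2.06), Krt14 (1.86) and Krt15 (1.69) were called higher and Krt17 (0.85) was not, while the luminal values lay between -0.54 for Krt18 and -0.09 for Krt8 and none was called. In that comparison 20.6% of 9469 genes were called higher and 28.3% lower. The comparisons share their stages, so the 3 sets of ratios are not independent. The Krt17 value in the adult over pre-puberty was 0.98 when the total over every gene was used for scaling, and the Krt15 value was 2.88 without the top cell of each stage.

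Levels of different keratins can be set side by side only per length of transcript, as RPKM, which is CPM per 1000 bases. At pre-puberty the order was Krt17 (91.4 RPKM), Krt14 (84.4), Krt18 (51.8), Krt5 (30.0), Krt15 (25.3), Krt8 (18.7), Krt19 (12.3) and Krt7 (1.08). At puberty it was Krt18 (1777 RPKM), Krt19 (780.3), Krt8 (513), Krt7 (171), Krt14 (135), Krt17 (113), Krt5 (21.0) and Krt15 (11.7). In the adult Krt18 (1224 RPKM) and Krt19 (679.9) still led, and Krt14 (499.6 RPKM) stood above Krt8 (482), followed by Krt17 (205), Krt7 (141), Krt5 (94.8) and Krt15 (44.1). No neighbours in these orders had overlapping counting intervals, but these do not cover the spread between cells or mice, and some neighbours changed places. Without the cell with the most reads of each gene, adult Krt8 (432 RPKM) stood above Krt14 (405), and at pre-puberty Krt14 (60.9 RPKM) stood above Krt17 (56.9) while Krt18 was at 5.33, below Krt8 (10.1), and Krt15 at 1.26, below Krt19 (4.25). With equal weight for each cell, Krt8 (496 RPKM) again stood above Krt14 (437) in the adult and Krt14 (86.2) above Krt17 (82.0) at pre-puberty, and the pubertal order was the same under both alternatives. The type I keratins summed to 265, 2816 and 2652 RPKM and the type II keratins to 49.8, 704 and 717 RPKM. The ratios of these sums were 5.32, 4.00 and 3.70. More of the 8 members are type I than type II, so an excess of type I is partly set by the list. At pre-puberty the type I sum included Krt18 and Krt15, of whose reads 89.8% and 95.1% came from 1 cell each. The ratio without these cells was not computed.

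Within cells the excess of type I over type II transcripts held for some pairs and not for others. In 105 pubertal cells with reads of both Krt8 and Krt18, the median log2 ratio of Krt18 to Krt8 per kilobase was 1.66, and Krt18 was the higher in 97 of them. In 38 such adult cells the median was 1.02, with Krt18 the higher in 30. Krt14 exceeded Krt5 in 16 of 22 pubertal and 14 of 15 adult cells with reads of both, with medians of 1.91 and 1.44. Krt17 exceeded Krt5 in 8 of 16 pubertal cells (median -0.19), and Krt19 exceeded Krt8 in 63 of 99 pubertal cells (median 0.42) but in 13 of 27 adult cells (median -0.19). The partners also ranked cells alike: Spearman's rho between Krt8 and Krt18 was 0.75 over 119 pubertal and 0.77 over 44 adult cells, and between Krt5 and Krt14 it was 0.55 and 0.68. These are descriptions over cells that share a stage and a capture, not tests.

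The windows upstream of Krt8 and Krt18 are shown because these partners were among the most closely matched members, lying 23873 bases apart on chromosome 15, and that of Krt5 as a basal keratin of the same chromosome. Each runs 5′ to 3′ on the strand of the gene, from 250 bases before to 10 bases after the RefSeq start in GRCm38.p6 (mm10), and capitals mark matches on either strand to the motifs of the TATA box (letters TATAAA), the GC box (letters GGGCGG), AP-1 (letters TGANTCA) or AP-2 (letters GCCNNNGGC). Krt8 is at chr15:102004333-102004592 on the minus strand, Krt18 at chr15:102027966-102028225 on the plus strand and Krt5 at chr15:101712896-101713155 on the minus strand.
Krt8: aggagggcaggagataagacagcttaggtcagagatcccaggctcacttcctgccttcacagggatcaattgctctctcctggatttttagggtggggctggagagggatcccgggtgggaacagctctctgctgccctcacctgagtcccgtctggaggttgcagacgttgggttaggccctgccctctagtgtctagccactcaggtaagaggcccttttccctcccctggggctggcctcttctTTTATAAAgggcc
Krt18: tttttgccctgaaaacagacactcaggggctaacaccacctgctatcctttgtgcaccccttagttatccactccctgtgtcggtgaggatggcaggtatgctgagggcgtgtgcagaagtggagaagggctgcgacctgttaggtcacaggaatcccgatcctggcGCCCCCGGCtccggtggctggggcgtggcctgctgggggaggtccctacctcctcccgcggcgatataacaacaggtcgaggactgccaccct
Krt5: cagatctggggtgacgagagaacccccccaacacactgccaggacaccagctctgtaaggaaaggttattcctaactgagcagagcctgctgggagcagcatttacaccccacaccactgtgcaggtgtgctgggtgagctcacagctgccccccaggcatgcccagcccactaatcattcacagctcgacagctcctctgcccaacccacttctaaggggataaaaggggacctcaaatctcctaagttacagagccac
Krt8 held TATAAA on both strands, in overlapping matches that begin 1 and 3 bases before the annotated start, and 12.7% of the 32851 promoter windows of the same length held this motif. Krt18 held 1 match to GCCNNNGGC, which reads the same on both strands, 83 bases before its start, a motif found in 14.2% of windows. The Krt5 window held no exact match to the 4 motifs, of which GGGCGG was found in 33.4% and TGANTCA in 7.03% of windows. Near matches were not searched for or marked, so a window without capitals may still hold a variant of a motif. Windows were matched for 5 of the 8 members.

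Co-detection of a basal with a luminal keratin in the same thinned cell had a share of 10.3% at pre-puberty (12 of 116; interval 5.46 to 17.4), 46.2% at puberty (55 of 119; interval 37.0 to 55.6) and 77.3% in the adult (34 of 44; interval 62.2 to 88.5). Over 100 repeated thinnings the mean shares were 12.1%, 46.8% and 77.5%, with ranges of 10.3% to 14.7%, 42.0% to 51.3% and 68.2% to 88.6%, so the order of the stages was kept while a single draw moved the adult share by many points. The share depended on how many reads counted as detection: with at least 10 reads in the thinned cell it was 6.03%, 24.4% and 29.5%, with more than 40 RPKM 6.90%, 27.7% and 34.1%, and with all reads 17.2%, 63.0% and 90.9%. At the stricter limits the pubertal and adult binomial intervals overlapped (17.0% to 33.1% and 16.8% to 45.2% at 10 reads).

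In cells with both, the balance of the reads differed between stages. All 12 such pre-pubertal cells had more basal than luminal keratin reads. At puberty 40 of 55 had more luminal reads and 15 more basal reads, and in the adult 22 of 34 and 12 of 34. Among cells with 10 or more reads of each layer, all 8 pre-pubertal cells had more basal reads and 24 of 32 pubertal cells had more luminal reads, against 7 of 16 adult cells, of which 9 had more basal reads, so the adult majority did not hold at this limit. The sum of the 4 basal keratins per thinned cell had medians of 0, 0 and 7.5 reads and highest values of 623, 759 and 1624 at pre-puberty, puberty and adult, and the sum of the 4 luminal keratins had medians of 0, 436 and 269 and highest values of 1077, 3188 and 1158.

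**Figure D3:**
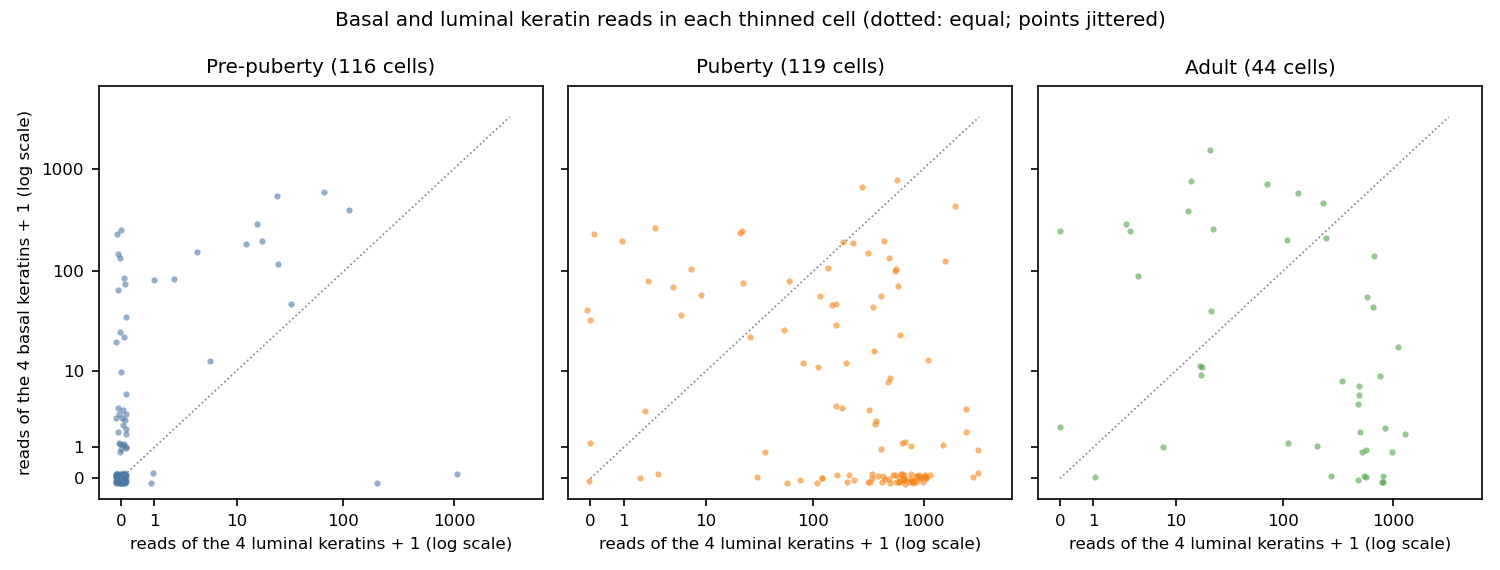
Reads of the 4 luminal keratins (x axis) against reads of the 4 basal keratins (y axis) in each thinned cell, both on a log scale of reads + 1, with 1 panel per stage and a dotted line at equal reads. Most pre-pubertal cells lay at 0 for luminal keratins, pubertal cells formed a large group with luminal reads only, and most adult cells had reads on both axes.

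Pairs of the same layer tended to be found in the same cells, as measured by the phi coefficient, the correlation of presence and absence over cells. All 6 basal pairs and all 6 luminal pairs had phi above 0 at each stage, and over the 100 thinnings at least 11 of these 12 did. At pre-puberty these values rested on few cells: the luminal pairs had 1 to 6 cells with both genes, and Krt15 with Krt17 had 1. Krt5 with Krt17 had the highest phi of the basal pairs at pre-puberty (0.66), where 79.2% of cells with Krt5 had Krt17 against 9.78% of cells without. Krt5 with Krt14 had phi values of 0.46, 0.48 and 0.41, and 93.8% of adult cells with Krt5 had Krt14 against 53.6% of those without. Krt15 had phi of 0.04, 0.02 and 0.02 with Krt17, but 0.18, 0.22 and 0.28 with Krt5 and 0.27, 0.24 and 0.09 with Krt14, and all 3 pre-pubertal cells with Krt15 had Krt14.

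Krt18 with Krt19 (0.66) and Krt8 with Krt18 (0.64) were the closest luminal pairs at puberty, where 105 of 119 cells had Krt8 with Krt18. Krt7 was the luminal keratin found in the fewest cells at each stage. At puberty 98.8% of cells with Krt7 also had Krt8, but only 73.6% of cells with Krt8 had Krt7, and in the adult the shares were 100% and 40.0%. All 4 luminal keratins were found in 79 of 119 pubertal cells (66.4%) and 15 of 44 adult cells (34.1%), and the most common set of keratins at puberty was these 4 with no basal keratin, in 49 cells (41.2%).

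Pairs across the layers differed by stage. At pre-puberty 12 of 16 such pairs had phi above 0, the highest being Krt5 with Krt8 (0.46) and Krt14 with Krt8 (0.43): 37.5% of cells with Krt5 had Krt8 against 3.26% of cells without. At puberty 12 of 16 had phi below 0, the lowest being Krt5 with Krt7 (-0.40), where 35.7% of cells with Krt5 had Krt7 against 79.1% of those without. In the adult 11 of 16 were below 0, with a range of -0.24 to 0.12. Over the 100 thinnings the number above 0 was 9 to 16 at pre-puberty, 1 to 7 at puberty and 2 to 10 in the adult, so the adult split was the least settled. None of the 8 keratins was found in 68 of 116 pre-pubertal cells, against 1 of 119 at puberty and 0 of 44 in the adult. Cells without either gene of a pair raise its phi, so phi does not compare like with like across the stages. Phi over only the cells with a keratin was not computed.

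Some pairs across the layers were common with a phi near or below 0, as Krt8 was found in nearly every pubertal and adult cell. At puberty 26 of 28 cells with Krt5 had Krt8 (92.9%, against 92.3% of cells without Krt5; phi 0.01). Krt14 was found with Krt8 in 38 of its 44 cells, at 86.4% against 96.0% of cells without Krt14 (phi -0.18). All 9 pubertal cells with Krt15 had Krt8, Krt18 and Krt19, each found in most cells of that stage, giving Krt15 phi values of 0.08, 0.10 and 0.12 with them. In the adult these phi values were -0.16, 0.02 and -0.14. In the adult Krt14 with Krt8 was found in 27 of 44 cells (61.4%, 45.5 to 75.6).

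**Figure D4:**
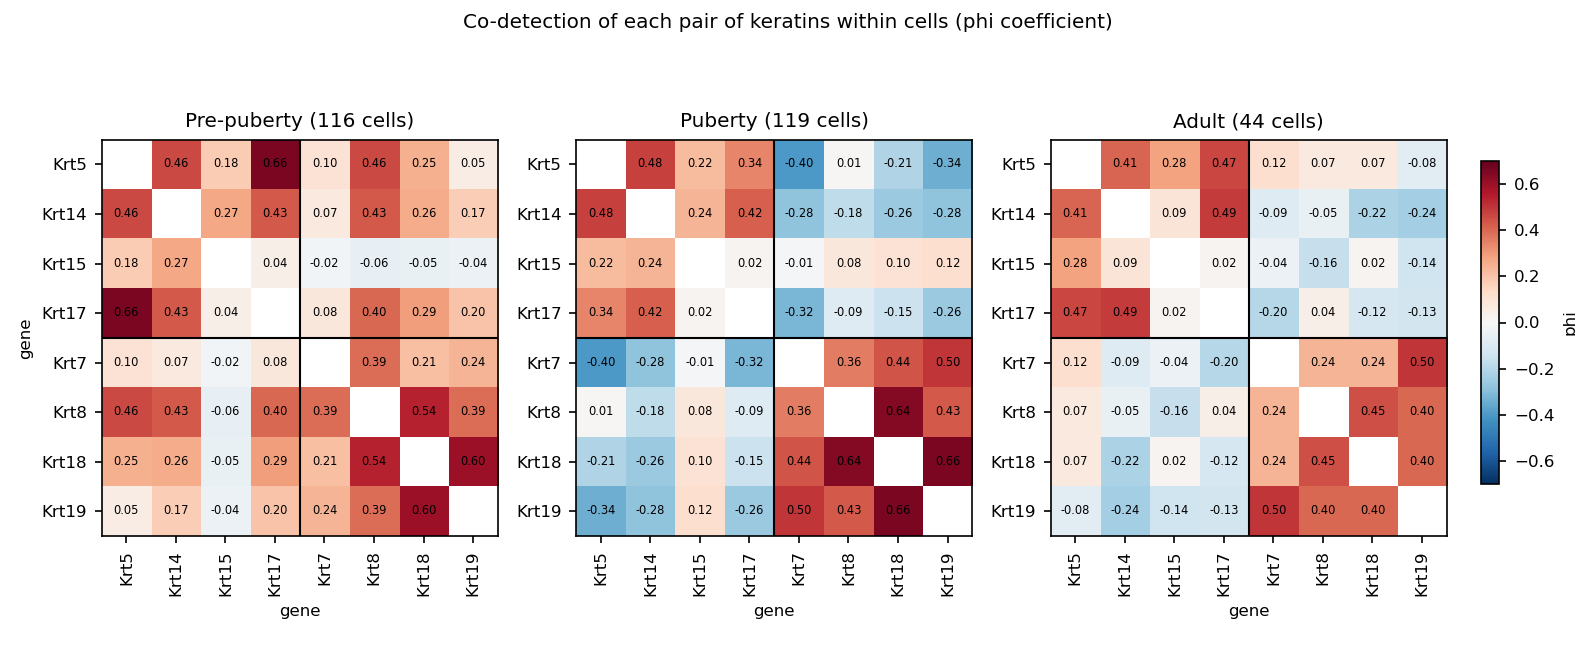
Phi coefficient of co-detection for each pair of the 8 keratins in thinned cells of each stage, with red above 0, blue below 0 and black lines between basal and luminal keratins. Pairs within a layer were above 0 at every stage, and pairs across layers were mostly above 0 at pre-puberty (12 of 16) and mostly below 0 at puberty (12 of 16) and in the adult (11 of 16). At pre-puberty 68 of 116 cells had none of the 8 keratins, which raises phi at that stage.

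Markers other than keratins were counted in the same cells. All 12 pre-pubertal cells with keratins of both layers had 5 or more of 10 basal markers (Acta2, Tagln, Trp63 and others; median 9), none had 5 or more of 10 luminal markers (median 2), and 11 had 6 or more of the 12 Schwann markers. Of the 32 pre-pubertal cells with only basal keratins, 6 had 5 or more basal markers and 29 had 6 or more Schwann markers. Of the 4 with only luminal keratins, 2 had 5 or more luminal markers and 4 had 6 or more Schwann markers. Of the 68 pre-pubertal cells with no keratin, 67 had 6 or more Schwann markers, 3 had 5 or more basal markers and none had 5 or more luminal markers. Without the 111 cells rich in Schwann markers only 5 pre-pubertal cells were left, of which 4 had a basal keratin, 1 a luminal keratin and 1 both.

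At puberty 54 of the 59 cells with only luminal keratins had 5 or more luminal markers and 1 had 5 or more basal markers, while all 4 cells with only basal keratins had 5 or more basal markers. Of the 55 cells with both, 35 had 5 or more basal markers, 35 had 5 or more luminal markers and 22 had 5 or more of each. In the adult the numbers among 34 cells with both were 24, 17 and 9. Cells with both at puberty had a median of 2708 genes in the thinned cell against 2711 in cells with only luminal keratins, and medians of 537523 and 587120 reads. At pre-puberty cells with both had a median of 3290 genes, against 3066 in cells with only basal keratins and 2762 in cells with none. Whether a chamber held more than 1 cell was not tested here.

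**Figure D5:**
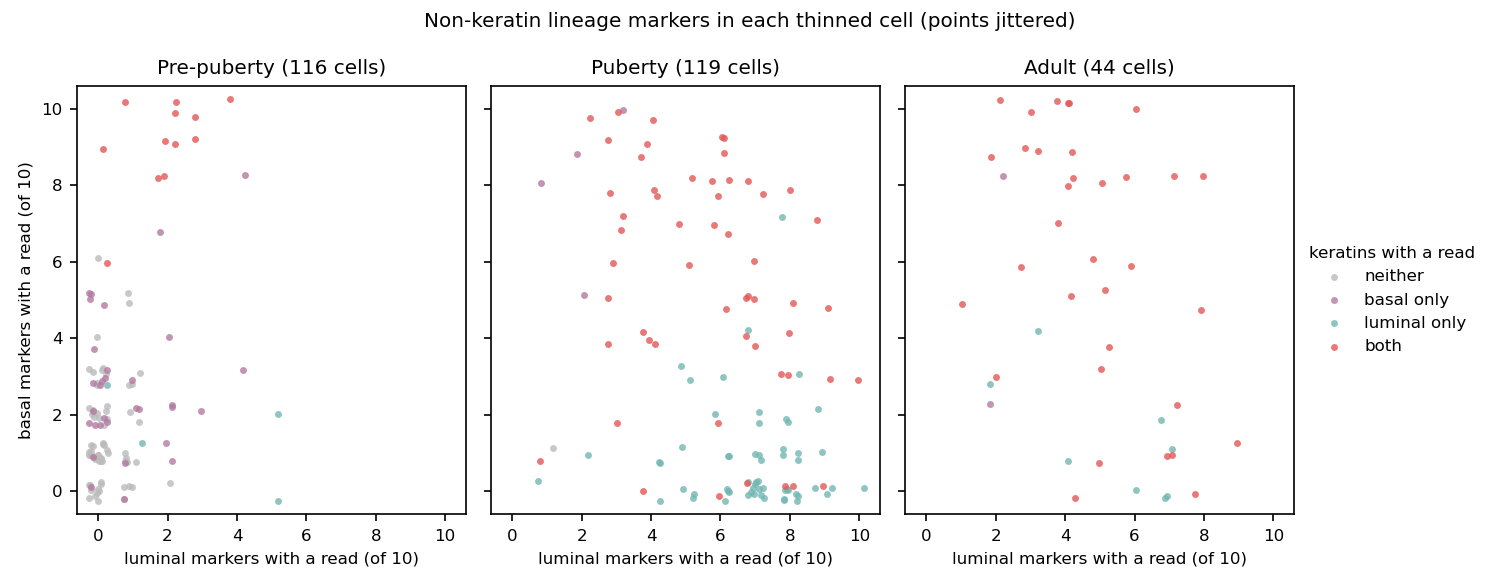
Number of luminal markers (x axis) against basal markers (y axis) other than keratins with a read in each thinned cell, of 10 each, with 1 panel per stage and colours for the keratins the cell held. Pre-pubertal cells with keratins of both layers had a median of 9 basal and 2 luminal markers, and pubertal cells with both had medians of 6 and 6.

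The genes whose reads ranked the cells most like a member, among genes found in at least 20% of the cells of the stage, are given as a description, with no p. For Krt14 these were the contractile genes Cnn1 (Spearman's rho 0.84), Tagln (0.82) and Myl9 (0.78) over 119 pubertal cells, and Tagln (0.90), Cnn1 (0.84) and Cald1 (0.83) over 44 adult cells. Krt5 was most like Il17b (0.65), Acta2 (0.64) and Igfbp3 (0.63) at puberty and Col17a1 (0.74), Tagln (0.72) and Cxcl14 (0.69) in the adult. Krt17 was most like Egr2 (0.62) at puberty and Tagln (0.80) in the adult. For Krt18, the epithelial surface gene Epcam (0.55) was among them at puberty and Vamp8 and Epcam (0.66 each) in the adult, and for Krt8 S100a6 (0.66) at puberty and Cldn7 (0.62) in the adult. Krt19 was most like S100a6 (0.63) at puberty and Atp1b1 (0.67) in the adult, Krt7 like S100a6 (0.57) and Maoa (0.72), and Krt15, in the adult, like Cds2 (0.58).

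Of the 17 genes that tie keratin filaments to desmosomes and hemidesmosomes, 8 of the 14 at 10 CPM or more were called higher and 2 lower at puberty over pre-puberty, with 1.36 as the median log2 ratio, against 24.0% and 21.4% of all genes. In the adult over pre-puberty 8 of 13 were called higher and 3 lower, against 28.9% and 31.6%. The desmosomal cadherin Dsg2 stood at 39.5, 573 and 572 CPM at pre-puberty, puberty and adult, and the plakin Dsp at 88.7, 473 and 257 CPM. In contrast, the linker Dst stood at 1308, 389.8 and 730.4 CPM, Plec at 1207, 822 and 401 CPM and Itga6, an integrin of hemidesmosomes, at 586, 339.7 and 291 CPM, so the linkers did not move as a group with the luminal keratins. In the adult over puberty 2 of 15 linkers were called higher and 5 lower, against 20.6% and 28.3% of all genes.

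Of the 9 other intermediate filament genes, Vim and Lmna had the highest levels at pre-puberty. Vim builds the filaments of mesenchymal and glial cells, and the study counts it among the basal genes of the mammary gland. It was found in 100% of pre-pubertal, 36.1% of pubertal and 45.5% of adult cells, at 2752, 214 and 400.2 CPM. Lmna, a nuclear lamin of most cells, was at 3719, 3500 and 3160 CPM, and Synm at 8.28, 0.803 and 162 CPM, with 83.5% of its adult reads in 1 cell. Of the 4 genes at 10 CPM or more, 3 were called lower and none higher at puberty over pre-puberty, against 21.4% and 24.0% of all genes. In the adult over pre-puberty 2 of 6 were called higher and 3 lower, against 28.9% and 31.6% of all genes, and the higher calls were Synm and Lmnb2, whose adult reads were 100% from 1 cell.

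Transcription factors known to act on keratin genes or on these layers were mostly higher after pre-puberty: 7 of 11 were called higher and none lower at puberty over pre-puberty (median 1.65), and also 7 of 11 in the adult over pre-puberty, where 24.0% and 28.9% of all genes were called higher. Gata3, required for luminal cells, stood at 42.5, 561 and 863 CPM, Klf4 at 312, 250.5 and 556 CPM and Esr1, the oestrogen receptor, at 5.38, 52.5 and 192 CPM. Of the adult Esr1 reads 78.6% came from 1 cell, and the share of cells with Esr1 was 37.0% at puberty and 22.7% in the adult. Trp63, which drives Krt5 and Krt14 in basal cells, stood at 25.9, 65.0 and 138 CPM, with log2 ratios of 1.18 at puberty over pre-puberty and 1.03 in the adult over puberty. Of the adult Trp63 reads 43.7% came from 1 cell, and the share of cells with Trp63 was 19.0%, 20.2% and 25.0%.

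The other marker lists give the setting for these values, beside 24.0% of all genes called higher and 21.4% lower at puberty over pre-puberty, 28.9% and 31.6% in the adult over pre-puberty and 20.6% and 28.3% in the adult over puberty. All 10 luminal markers were called higher at puberty over pre-puberty (median 4.38), and all 8 mature luminal markers as well (median 4.67), while 4 of 6 luminal progenitor markers were called higher. Of the 10 basal markers 5 were called higher and 1 lower in that comparison, and 8 were called higher in the adult over puberty, with Acta2 at 623, 1635 and 3441 CPM. Of the 12 Schwann markers 11 were called lower at puberty and all 12 in the adult, relative to pre-puberty, and Pmp22 stood at 5022, 883 and 106 CPM, with 85.8% of its pubertal reads in 1 cell. Among 8 fibroblast markers 2 were called higher and 3 lower at puberty over pre-puberty, with Col3a1 at 5283, 528 and 265.5 CPM (82.5% of the adult reads in 1 cell), and 3 of 3 endothelial markers at 10 CPM or more were called higher. The immune markers were below 10 CPM at pre-puberty and puberty, and 3 of 5 (Cd74, Tyrobp and Lyz2) passed it in the adult, each with 99.9% or 100% of its reads in a single cell.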

How the data were processed

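Raw read counts per gene were deposited by the authors as 1 table per cell. Per the labels, reads were aligned to mm10 with Subread 1.4.6 and assigned by featureCounts, and the study's methods name Rsubread's built-in RefSeq annotation. Entrez identifiers were matched to RefSeq GRCm38.p6, and 1904 genes with no match, 15 mitochondrial and 91 protein-coding ribosomal genes were removed from 27179, leaving 25169. The ribosomal set was the last of 3 definitions tried and was settled after values under the others had been seen; with ribosomal pseudogenes also removed, 43 rather than 44 adult cells were kept. The kept cells held 40702979, 68469973 and 18681041 reads at pre-puberty, puberty and adult. The members and all gene lists were chosen with earlier results of these data known.

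Each kept cell was thinned without replacement to 100000 reads. CPM used the sum over analysed genes, and RPKM the deposited gene length. Intervals are exact Poisson for CPM and RPKM and Clopper-Pearson for shares. Each stage was 1 sample, so no test was run and no p-value is given. The sign of the log2 ratio calculation was checked on simulated data with 200 changed genes among 25169 for pre-puberty over puberty, where 100% had the right direction. The simulated counts were pooled by stage without spread between cells, so this check says nothing on how steady the ratios are. Named genes were the 8 members, the 6 other keratins with the largest stage CPM of at least 10, the 3 genes of each list with the largest stage CPM and the genes most like each member, and Dsg2, Dsp, Trp63, Mbp, Lmnb2, Tyrobp and Lyz2 were named after their values were seen. Some genes that this rule names are not reported here. No doublet caller was run, since the study inspected each capture site. No 2 cells held identical counts. Alternatives covered scaling (edgeR 4.0.16 in R 4.3.3 for TMM), the CPM added, filters, depth windows and the detection limit. Python 3.11.15, numpy 2.4.6, pandas 2.3.3, scipy 1.17.1 and matplotlib 3.10.9 were used. The whole-series table repeats the per-cell counts and was not used.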

Additional observations from a re-analysis of the deposited data

Results flagged for a closer look

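Cells below the coverage filter entered no comparison, and they still held keratin reads above the limit that a count of 0 allows. The 28 excluded pre-pubertal cells had 533.5 CPM of basal and 28.2 CPM of luminal keratins, the latter from 15 reads of which 66.7% came from 1 cell. The 17 excluded pubertal cells had 213 CPM of basal and 3911 CPM of luminal keratins, and the 22 excluded adult cells had 692 CPM and 3291 CPM. The kept cells of the same stages had 387, 461 and 1423 CPM of basal and 125, 4756 and 3741 CPM of luminal keratins at pre-puberty, puberty and adult.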

How the results depend on the processing

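No log2 ratio past the fold in the main setting changed direction under any alternative. The share of cells with a basal and a luminal keratin moved outside its main interval at puberty and in the adult with all reads (63.0% and 90.9%), above 40 RPKM (27.7% and 34.1%) and with 10 reads (24.4% and 29.5%). Of the shares of cells with each single keratin under these detection limits, 38 moved outside their main interval and 34 did not. Chosen after seeing the data, the mean of 100 thinnings gave 12.1%, 46.8% and 77.5% from pre-puberty to adult, and removing ribosomal pseudogenes too gave 12.2%, 47.0% and 77.2%. Genes past the fold numbered 1235, 1855 and 1179 with a 100 CPM filter for puberty over pre-puberty, adult over pre-puberty and adult over puberty. Of 240 alternative log2 ratios, 220 kept direction and call, 12 gained a call in the same direction, 1 lost it (Krt17, adult over pre-puberty, 0.98 with the total over every gene) and 7 uncalled ones changed sign, 4 of them Krt15 at puberty over pre-puberty (0.30 to 2.48). Krt15 in that comparison was called in either direction by setting. It was lower with TMM scaling (-1.02) and higher in cells with 200000 to 600000 reads (2.48). Krt17 in the adult over puberty was 1.05 with median of ratios scaling, and Krt19 -1.45 in cells with 200000 to 600000 reads. The order of the keratins by RPKM without the top cell of each gene and with equal weight for each cell was an alternative chosen after seeing the data. Median of ratios scaling moved the median of all genes by -0.17 at puberty over pre-puberty and 0.18 in the adult over puberty. No paired analysis was possible because no test was made and cell numbers only name cells. With no mouse, sort or plate labelled, stage and batch cannot be told apart.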

Other observations

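Of 42 other keratin genes, 6 reached 10 CPM in a stage and 5 had no read in any kept cell. Krt31, a keratin of the hair shaft, stood at 30.8 CPM at pre-puberty with all 1253 reads in cell 66, which had none of the 8 members; the same cell held 79.3% of the reads of the shaft keratin Krt35 (12.9 CPM). Krt25, a keratin of the inner root sheath of the hair follicle, and Krt75, of its companion layer, had reads in 9 thinned pre-pubertal cells each, at 15.3 and 16.2 CPM. Krt25 had no read at the other stages, and Krt75 had 1 at puberty. Over 9 root sheath and companion layer keratins, grouped after their values were seen, 22 of 116 pre-pubertal cells had a read, against 4 of 119 pubertal and 3 of 44 adult cells, and 11, 0 and 0 cells had reads of 2 or more of them. Of the 22 cells, 13 had a basal member, 4 a luminal member and 8 none, and 20 had 6 or more Schwann markers. Krt23 stood at 6.39, 30.4 and 7.01 CPM over the stages, and Krt79 at 15.2 CPM at puberty, with 68.7% of its reads from 1 cell.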
